A study of Danio rerio with 12 samples.

Results

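The heat shock and chaperone genes of the zebrafish embryo were followed in the offspring of fed and starved fathers. The members were chosen by name: symbols that start with hsp, dnaj or cct and a digit, or are tcp1, of which 72 entries of the deposited table matched. Of these, 4 were left out by name (hspa5, hsp90b1, hsp90aa1.1 and names starting with hspg), which left 68 of 13680 listed genes. The 68 entries carry 67 symbols, because cct2 is listed under 2 identifiers. A coarse sorting by gene name put 35 of the 68 in the cytosol, 9 in the mitochondrion and 5 in the endoplasmic reticulum. The remaining 19, all of the DNAJC family, were put in the cytosol or elsewhere. Such a sorting can be wrong for single genes, such as dnajb12a and dnajb14, which it put in the cytosol. "Cytosolic" therefore does not describe all of the set.

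Messenger RNA of whole embryos of the AB strain was measured 24 hours after fertilisation, in 6 libraries from fed fathers and 6 from starved fathers. All eggs came from fed wild-type females and were fertilised in vitro, so the groups differ by label in the father's feeding alone. A library held 1 to 3 embryos. Libraries are called fed 1 to fed 6 and starved 1 to starved 6 after the father's group and the replicate number; libraries of the same number share a code in their labels, and numbers 5 and 6 share the code 1242. The duration of starvation and whether each library had its own father are not stated in the labels, so the p-values reflect only variation among these 12 libraries, some of which may be technical.

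Molecular chaperones bind unfolded proteins and help them to fold, or hold them until they can. HSP70 proteins bind short hydrophobic stretches under the control of J-domain proteins (DNAJ), which deliver clients and trigger ATP hydrolysis, and of HSP110 proteins, which release ADP. HSP90 acts later on signalling proteins and, in muscle, on myosin, while the ring-shaped chaperonin TRiC folds actin and tubulin. Heat and other proteotoxic stress raise the transcripts of some of these genes through heat shock factors, whereas others are abundant in unstressed cells.

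Sequencing gave between 2950739 and 3934765 reads per library over the listed genes. The deposited value of a gene is its read count divided by a size factor for the library, and 1 read is worth 0.234 to 0.374 of a value. Since the libraries count the 3' ends of transcripts, in principle irrespective of transcript length, levels are compared between genes on this scale. The transcript of the mitochondrial large ribosomal RNA took between 26.98% of the summed value in starved 3 and 48.75% in fed 5. Fewer cells of a type and less RNA per cell cannot be told apart in such whole-embryo samples.

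The set was dominated by a pair of genes. hsp90ab1, the constitutive cytosolic HSP90, was the 7th most abundant entry of the whole table by mean value, and hspa8, the constitutive cytosolic HSP70 (HSC70), was the 34th. Together they made up between 59% and 69% of the members' summed value in a library, with a median of 63.3%. Of the other members, 17 had mean values between 50 and 500, 35 between 5 and 50, and 14 below 5. Spread was taken as the SD within the groups, pooled over both, in percent of the gene's mean over the 12 libraries. Among the 19 members with a mean of at least 50, it was smallest for hspa8, at 7.90%. It was largest for the mitochondrial co-chaperonin hspe1, at 53.3%. The median spread of these members was 15.96%, beside 19.98% over all genes of that level. The heat map of all members shows this range of behaviour by class.

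**Figure D1:**
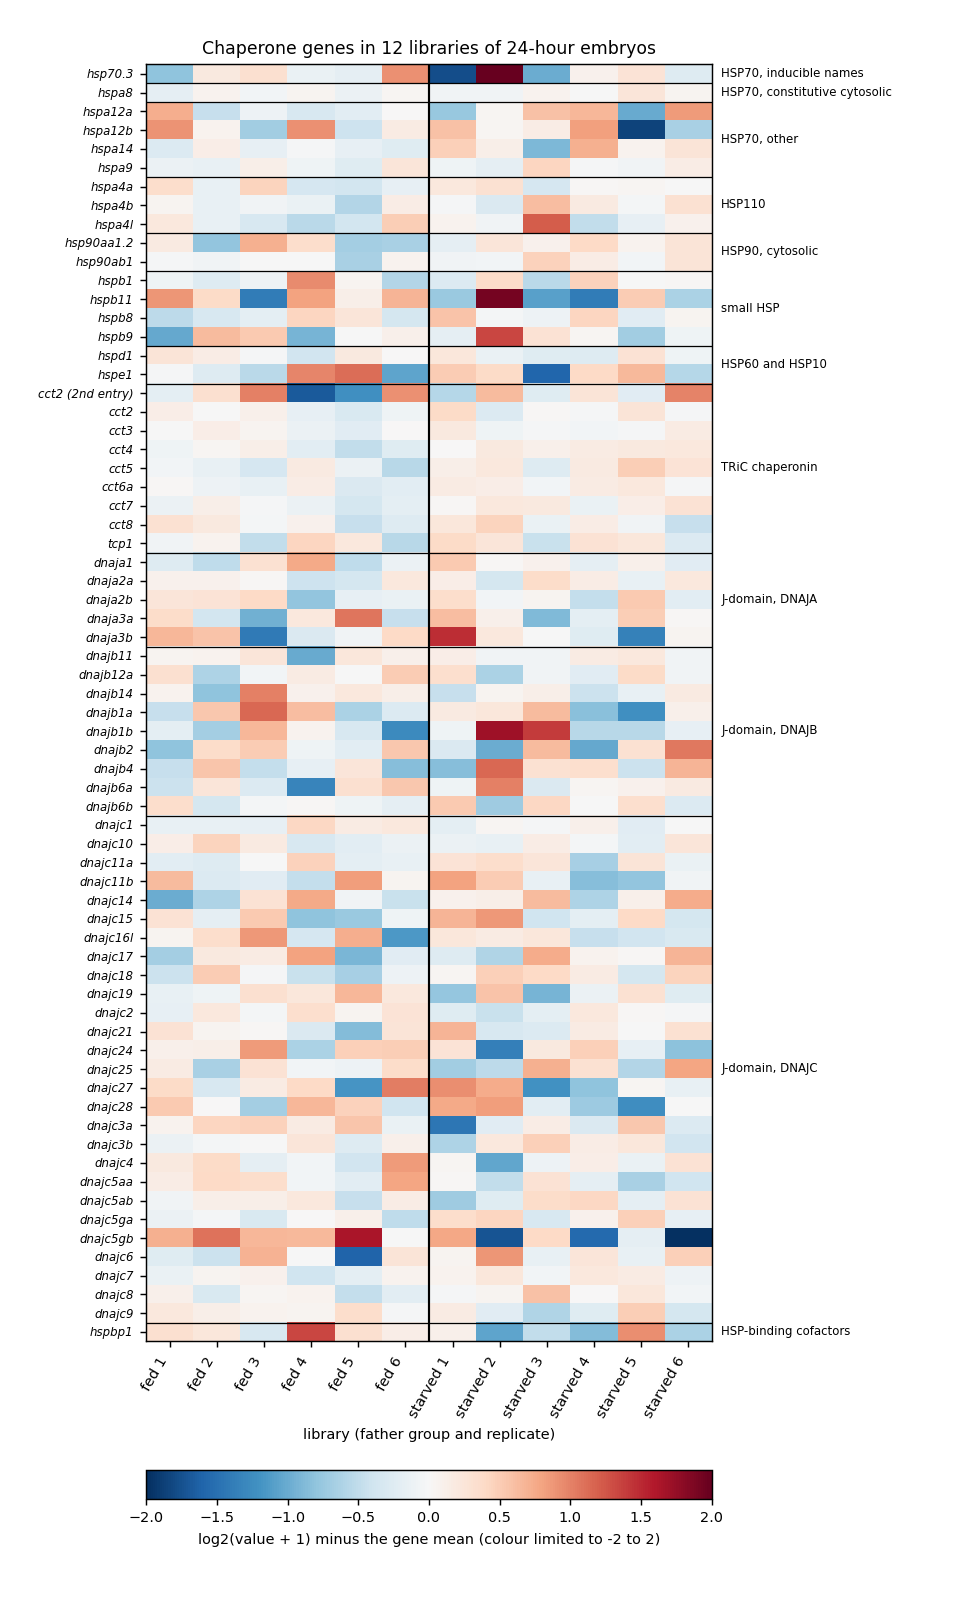
Each row is a chaperone gene and each column a library. The colour gives log2(value + 1) minus the gene's mean over the 12 libraries, limited to between -2 and 2. Rows of hspa8 and the TRiC subunits are pale, apart from the low second cct2 entry, while dark cells lie in hsp70.3, hspb11, hspa12b, dnajb1b and dnajc5gb.

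No chaperone gene passed the test of starved against fed fathers without a block after adjustment over all genes. In limma on log2(value + 1), 0 of 68 members had an adjusted p below 0.05, beside 0% of all 13680 genes, and the smallest adjusted p of a member was 0.775. At an unadjusted limma p below 0.05 there were 4 members, cct4 and cct5 higher (2.11% of all genes) and dnajc5aa and dnajc5gb lower (3.44% of all genes) in starved-father offspring. These are 5.88% of the members, close to the 5.54% of all genes. On recovered reads edgeR and DESeq2 also called 0 members after adjustment, with 3 (4.74% of all genes) and 4 (5.51% of all genes) at an unadjusted p below 0.05. No member had groups that did not overlap, beside 0.234% of all genes. The authors' deposited table gives an FDR below 0.1 to 1 member, dnajc5gb, beside 1.06% of all genes.

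By direction, 42 members (61.8%) had a higher mean log2 value in starved-father offspring and 26 a lower one, beside 48% of all genes higher. The median log2 difference of the members was 0.07, beside -0.01 over all genes, and 0.035 without fed 5. Without fed 4 and fed 5 the count was 36 of 68, beside 46.8% of all genes. The plot of differences by class shows where the members lay.

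**Figure D2:**
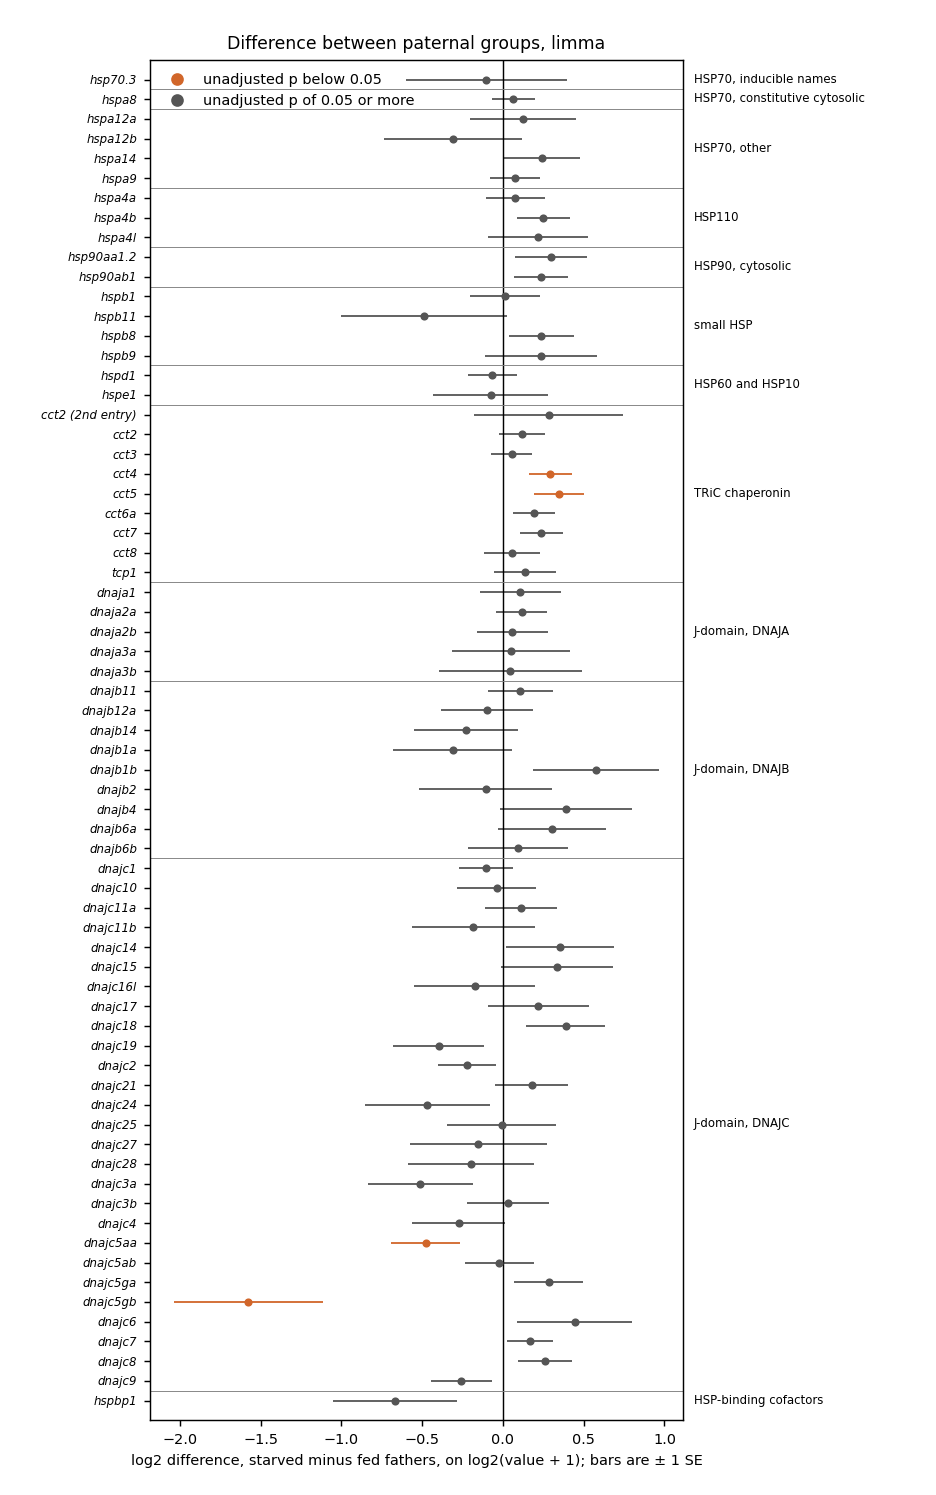
Points are limma log2 differences, starved minus fed fathers, on log2(value + 1), with bars of 1 standard error, for the 68 members by class. The TRiC entries all lie to the right of 0, dnajc5gb lies farthest to the left, and the 4 orange points are those with an unadjusted p below 0.05.

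The heat-inducible side of the set was read first in hsp70.3, a tandem-duplicate HSP70 gene of chromosome 3 (26123736 to 26127091, build GRCz11) and the only entry with an hsp70 name among the members. Its value was 26.74 in starved 2. In the other starved libraries it was 0.57, 1.69, 4.72, 5.49 and 3.5, and in fed 1 to fed 6 it was 2.07, 5.16, 5.71, 3.92, 3.74 and 9.10. Starved 2 thus stood above every other library, 6.82 times their median and 5.18 times fed 2, which shares its code, while the remaining libraries of the groups overlapped. These values rest on 81 reads in starved 2 and on 2 to 31 reads elsewhere. Reads of near-identical copies of this gene could be split in the counting, so its level is uncertain. hsp70.3 also lies within the listed span of the muscle gene atp2a1 (chromosome 3, 26081343 to 26157066). Whether reads of atp2a1 were counted for hsp70.3 was not tested.

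Between the groups hsp70.3 had no settled direction. The group means were 4.95 ± 2.39 (SD, n = 6) for fed and 7.12 ± 9.79 (SD, n = 6) for starved fathers, while limma put the log2 difference at -0.10 ± 0.50 (SE; adjusted p = 0.995). On recovered reads the difference of hsp70.3 was 0.49 with edgeR and 0.51 with DESeq2. Only 2 of the 6 starved libraries lay above the fed mean. Without starved 2 the limma difference was -0.59, and it was positive without fed 6 (0.07), starved 1 (0.24) or starved 3 (0.09).

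Other members stood out in the same library. The small heat shock protein gene hspb9 was at 25.42 in starved 2, against 5.49 to 11.81 in the other starved and 4.15 to 15.20 in the fed libraries. hspb11, also named as a small heat shock protein, was at 8.91, against 0 to 2.74 in the other starved and 0 to 3.85 in the fed libraries. dnajb6a, a J-domain gene whose human counterpart suppresses aggregation and is tied to a muscle disease, was at 14.52, against at most 7.71 and 10.27. Each of these was highest in starved 2, and the groups overlapped with that library and without it.

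The J-domain gene dnajb1b, whose mammalian counterpart DNAJB1 is induced with HSP70, reached 36.64 in starved 2 and 29.41 in starved 3. The other 4 starved libraries were between 6.86 and 9.94 and the fed libraries between 3.82 and 17.42. For dnajb1b 2 libraries were therefore high, and only starved 2 was also high for hsp70.3, which was at 1.69 in starved 3. The paralogue dnajb1a was highest in fed 3, at 16.56, and was at 8.25 in starved 2. The ratio of dnajb1b to dnajb1a was 1.21 ± 0.614 (SD, n = 6) in fed and 2.4 ± 1.2 (SD, n = 6) in starved libraries. A 2-sided exact permutation test on the mean log2 of this ratio gave p = 0.0433, and 0.303 after adjustment over the 7 ratios compared. The groups overlapped, with a ratio of 2 in fed 5 and 1.25 in starved 1 and starved 6. dnajb1a rested on 7 to 58 reads per library. dnajb1a was named after its values were seen, and neither p-value allows for that choice.

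Not all chaperone and co-chaperone genes followed. The constitutive hspa8 was at 1673 in starved 2, near the low end of its range of 1558 to 2090. The constitutive hsp90ab1 was at 4067 there, below the starved median of 4362. bag3, the HSP70 co-chaperone that pairs with hspb8 in the clearance of damaged proteins, was at 14.85 there. That was its highest starved value and above the median of the other libraries, 10.37, but below the 16.29 of fed 2. Of 6 heat shock factor and regulator genes, 2 were highest in starved 2. hsf1, the main activator of the heat shock response, was at 22.45 there and at most 12.69 elsewhere. hsf2 was at 34.00 there and at most 25.31 elsewhere. chordc1a was lowest in starved 2, at 2.64, against at least 5.16 elsewhere, and chordc1b was at 26.74, near its lowest value of 26.20. hsbp1a and hsbp1b were at 9.90 and 50.18, near the medians of the other libraries, 9.61 and 49.76.

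Starved 2 was singled out when the genes were chosen, so the counts that follow describe it and test nothing. Counted over the set, starved 2 was the highest of the 12 libraries for 11 members (16.2%), beside 9.36% of all genes. Among members with a mean of at least 5 in the other 11 libraries the count was 6 of 53 (11.3%), beside 8.98% of such genes. In that set it exceeded the highest other library more than 1.5 times (value + 1) for 1 member, hspb9 (1.89%, beside 0.449% of such genes), and more than 2 times for 0 members, beside 0.0898% of such genes. hsp70.3 and hspb11, with log2 excesses of 1.46 and 1.03, fall outside it because their values in the other libraries are low. A further ranking took members with at least 5 in starved 2 or a mean of at least 5 in the other 11 libraries. After the genes named above, dnajc15, dnajc6, cct8, dnajc28 and dnajc7 most exceeded all other libraries in it. Their log2 excess over the next library was between 0.015 and 0.19, below the 0.31 of dnajb1b and the 0.46 of dnajb6a. dnajb4, with an excess of 0.47, was below that minimum, at 2.97 in starved 2 and at most 1.87 elsewhere. The plot of heat shock genes by library shows the values of some of these genes.

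**Figure D3:**
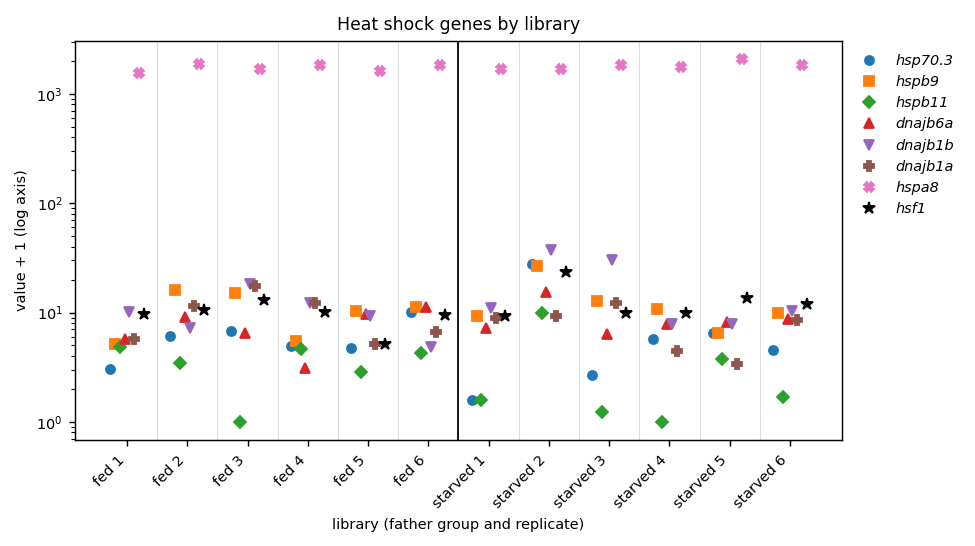
Deposited values plus 1, on a log axis, of 7 chaperone genes and hsf1 in each library, fed fathers left of the black line and starved fathers right. In starved 2, hsp70.3, hspb9 and dnajb1b have values of 26.74, 25.42 and 36.64, while hspa8 stays between 1558 and 2090 in all libraries.

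Markers outside the set also moved with starved 2. Of 20 listed immediate early genes, which respond within minutes to many stimuli, 16 were found. Of these, 13 were highest in starved 2, beside 9.36% of all genes. The summed value of the 16 there was 1016, beside 411 in starved 5 and 104 to 215 in the other libraries. The leading one, fosab, was at 355.5 in starved 2 and 67.6 in starved 5, where hsp70.3 was at 5.49. Of 21 skeletal muscle markers 12 were highest in starved 2, beside 9.36% of all genes. Their summed value there, 26291, was below the 26945 of fed 3. The summed value of 20 yolk syncytial layer entries was lowest in starved 2, at 3928. The part of these markers in the chaperone values was not tested.

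The constitutive HSP70 hspa8 had nearly equal levels in the groups. Its lowest, median and highest values were 1558, 1756 and 1858 in fed and 1673, 1791 and 2090 in starved libraries. limma put the log2 difference at 0.06 ± 0.13 (SE; adjusted p = 0.976), within the spread of the libraries. The mitochondrial HSP70 hspa9 had means of 88.5 ± 11.8 and 93.6 ± 15.6 (SD, n = 6 each). hspa14, in mammals part of a ribosome-bound chaperone with dnajc2, had a log2 difference of 0.24 ± 0.24 (SE), while that of dnajc2 was -0.22 ± 0.18 (SE). The distant HSP70 relatives hspa12a and hspa12b lay at 0.12 ± 0.33 and -0.31 ± 0.43 (SE). None of these had an unadjusted p below 0.05.

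All 3 HSP110 genes, the nucleotide exchange factors of HSP70, had positive differences, with a median log2 difference of 0.22. The median was 0.13 without fed 4, and 2 of the 3 were positive without starved 3 (median 0.15) or without fed 4 and fed 5 (median 0.05). hspa4b ranged from 121 over a median of 170 to 202 in fed and from 149 over 193 to 281 in starved libraries, and the groups overlapped. Its limma log2 difference was 0.25 ± 0.16 (SE; adjusted p = 0.901). hspa4a was at 46.0 ± 12.1 and 47.8 ± 7.18 (SD, n = 6 each), and hspa4l at 6.67 ± 2.19 and 8.33 ± 4.65, with 17.60 in starved 3 alone. For hspa4a the difference was -0.08 without fed 4 and fed 5.

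Both cytosolic HSP90 members were higher on average in starved-father offspring, without passing the test. hsp90ab1 ran from 2684 over a median of 4150 to 4416 in fed libraries and from 3992 over 4362 to 5817 in starved ones. Fed 5 was low and starved 3 high, while the rest overlapped. limma put the log2 difference at 0.23 ± 0.17 (SE; adjusted p = 0.913), and 0.13 without fed 5. hsp90aa1.2, one of the HSP90 alpha genes, was at 93.5 ± 41.8 in fed and 107 ± 14.5 in starved libraries (SD, n = 6 each). Its ratio to hsp90ab1 was 0.0237 ± 0.00923 and 0.0235 ± 0.00392 (SD, n = 6 each). A 2-sided exact permutation test on the mean log2 of this ratio gave p = 0.805, adjusted 0.955.

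The alpha gene outside the set, hsp90aa1.1, which in zebrafish is expressed in developing muscle and needed for myosin folding, was at 365 ± 58.4 in fed and 493 ± 114 in starved libraries (SD, n = 6 each). Its limma log2 difference was 0.41 ± 0.16 (SE; unadjusted p = 0.0176, adjusted p = 0.868). Muscle markers lay the same way: 19 of 21 were higher in starved-father offspring, beside 48% of all genes. At an unadjusted limma p below 0.05 there were 3 of the 21, beside 5.54% of all genes. None was at 0 in any library, and their summed values were 5611 to 26945 in fed and 11758 to 26291 in starved libraries. Fed 4 and fed 5 had the lowest muscle sums. All 20 yolk syncytial layer entries were lower, beside 7113 of 13680 genes. Their sums were 7336 to 20408 in fed and 3928 to 14224 in starved libraries. At an unadjusted limma p below 0.05 there were 8 of the 20, beside 5.54% of all genes. Both lists were chosen with earlier results of these data known. The part of these lists in the chaperone differences was not tested.

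The subunits of the TRiC ring lay in one direction. All 9 entries had positive log2 differences, and so did all 8 subunits without the low second cct2 entry, with a median of 0.16. The summed value of the 9 entries was 1621, 1661, 1580, 1612, 1327 and 1391 in fed 1 to fed 6, and 1814, 1783, 1609, 1719, 1849 and 1738 in starved 1 to starved 6. The group means were 1532 ± 138 and 1752 ± 84.8 (SD, n = 6 each), and only starved 3 lay within the fed range. Subunits of 1 complex are not independent replicates, and the count carries no test.

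cct4 was the most abundant subunit. Its values were 315, 345, 361, 289, 238 and 282 in the fed libraries and 337, 385, 359, 375, 381 and 386 in the starved ones. All 6 starved libraries lay above the fed mean of 305 ± 44.8 (SD), and the groups overlapped through fed 2 and fed 3. The limma log2 difference was 0.29 ± 0.13 (SE; unadjusted p = 0.0390, adjusted p = 0.885), and without fed 4 and fed 5 it was 0.19 with an unadjusted limma p of 0.157.

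cct5 ran from 122 over a median of 162 to 203 in fed and from 150 over 205 to 251 in starved libraries. Its limma log2 difference was 0.35 ± 0.15 (SE; unadjusted p = 0.0348, adjusted p = 0.885), with 5 of 6 starved libraries above the fed mean. Without fed 4 and fed 5 it was 0.45, with an unadjusted limma p of 0.00908 and an adjusted p of 0.856. cct7 and cct6a had differences of 0.24 ± 0.13 and 0.19 ± 0.13 (SE), and the starved libraries lay above the fed mean in 5 and 6 of 6 cases. cct2, cct3, cct8 and tcp1 lay between 0.05 and 0.13, less than their standard errors.

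Fed 5 was the lowest of the 12 libraries for 6 of the 8 subunits, cct2, cct3, cct4, cct6a, cct7 and cct8. It was so for 16 of all 68 members (23.5%), beside 10.6% of all genes, and for 10 of 19 members with a mean of at least 50 (52.6%), beside 25.8% of such genes. It is also the library with the largest share of mitochondrial ribosomal RNA, 48.75%. Starved 5 had a share of 46.66% and the highest TRiC sum, 1849. Fed 6 had 46.44% and a sum of 1391, and fed 4 had 44.77% and 1612. The part of this share in the TRiC values was not tested. Without fed 4, fed 5 or starved 2 there were 8 of the 9 TRiC entries with positive differences, and without fed 4 and fed 5 together 6. The second cct2 entry (chromosome 4, 78008298 to 78009682) had a mean value of 2.69, beside 183 for the main one (78022547 to 78026285 of the same chromosome), and reads could be split between them. The plot of subunits gives each value.

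**Figure D4:**
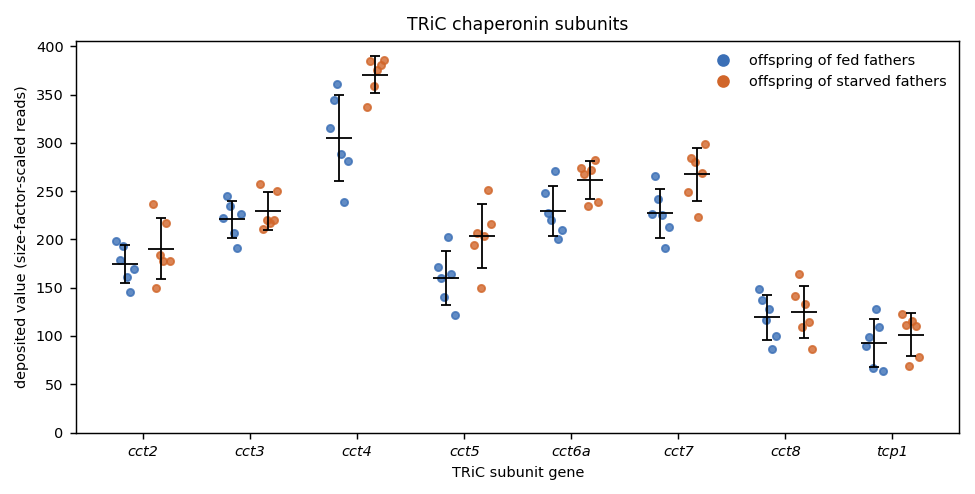
Points are the deposited values of the 8 TRiC subunit genes in each library, blue for fed and orange for starved fathers, with bars for the mean and 1 SD of 6 libraries. The groups lie farthest apart in cct4, at 305 and 371, and nearly coincide in cct3 and cct8.

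The partners of TRiC did not move as a group. Of 14 listed prefoldin subunits and related genes 11 were found, 5 higher and 6 lower, with a median log2 difference of -0.01. pdrg1, a prefoldin-like gene, was at 3.15 ± 0.880 and 5.62 ± 0.958 (SD, n = 6 each; limma unadjusted p = 0.0307, adjusted p = 0.885). pfdn4, a prefoldin subunit, had a difference of -0.39 ± 0.20 (SE).

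The small heat shock protein genes, which hold unfolded proteins without ATP, were mostly alike in the groups. hspb1, the most abundant, was at 115 ± 48.9 in fed and 113 ± 28.9 in starved libraries (SD, n = 6 each), with 211 in fed 4 alone. hspb8 was at 39.7 ± 11.1 and 46.5 ± 10.8 (SD, n = 6 each), a limma log2 difference of 0.24 ± 0.20 (SE; adjusted p = 0.941). The sign of hspb1, 0.01 ± 0.21 (SE), turned with the test.

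The mitochondrial chaperonin hspd1 (HSP60) and its lid hspe1 (HSP10), neighbours on chromosome 9, behaved differently from each other. hspd1 stayed between 134 and 215 over the 12 libraries, while hspe1 ran from 30.4 in starved 3 to 203 in fed 5, 6.68-fold. hspe1 was the only one of 19 members with a mean of at least 50 whose highest library was more than 5 times its lowest (5.26%), as were 6.28% of all such genes. The ratio of hspe1 to hspd1 ran from 0.205 in starved 3 to 1.38 in fed 4, and was over 1 in fed 4 and fed 5 only. Its group means were 0.641 ± 0.448 and 0.585 ± 0.244 (SD, n = 6 each). A 2-sided exact permutation test on the mean log2 of this ratio gave p = 0.981, adjusted 0.981. The limma log2 difference of hspe1 was -0.08 ± 0.36 (SE), and 0.43 without fed 4 and fed 5.

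**Figure D5:**
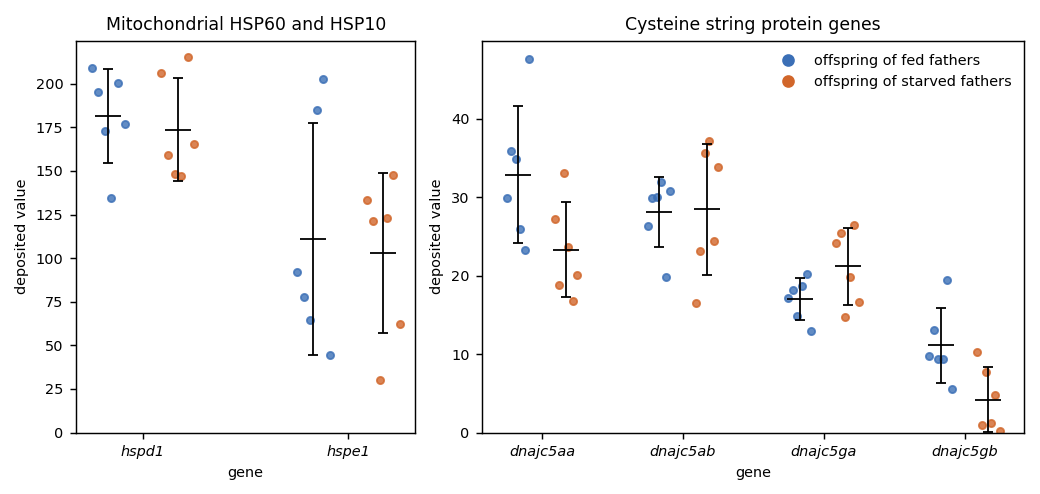
Deposited values per library of the mitochondrial chaperonin pair (left) and of the 4 cysteine string protein genes (right), blue for fed and orange for starved fathers, with the mean and 1 SD of 6 libraries. hspe1 spreads from 30.4 to 203, and dnajc5gb has 3 starved libraries below 1.5.

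The J-domain family held 41 members, 21 higher and 20 lower. All 5 DNAJA members, the general HSP70 partners, had positive differences of 0.05 to 0.12, each smaller than its standard error, and with edgeR and DESeq2 4 of the 5 were positive. Without starved 1, or without fed 4 and fed 5, 2 of the 5 were positive, and without fed 3, fed 4 or starved 5 there were 3. dnaja2a, the most abundant, was at 176 ± 29.9 and 191 ± 33.5 (SD, n = 6 each). Of the 9 DNAJB members 5 were higher and 4 lower, and of the 27 DNAJC members 11 were higher and 16 lower, a class median of -0.04. In the endoplasmic reticulum dnajb11, a partner of the HSP70 of that compartment, was at 18.98 in fed 4 and between 37.1 and 46.3 in the other 11 libraries.

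The smallest p of a member belonged to dnajc5gb, listed as the gamma b form of DNAJC5. DNAJC5 encodes cysteine string protein, a J-domain protein of synaptic vesicles in mammals and flies. dnajc5gb (chromosome 17, 6490089 to 6514962) was at 9.78, 13.03, 9.42, 9.34, 19.46 and 5.58 in fed 1 to fed 6. In starved 1 to starved 6 it was at 10.23, 0.99, 7.71, 1.26, 4.80 and 0.23. Starved 2, 4 and 6 were near 0, with 3, 4 and 1 reads, and starved 1 and 3 lay within the fed range, so the groups overlapped.

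The means of dnajc5gb were 11.1 ± 4.73 in fed and 4.2 ± 4.09 in starved libraries (SD, n = 6 each), and all 6 starved libraries were below the fed mean. The limma log2 difference was -1.57 ± 0.46 (SE; unadjusted p = 0.00239, adjusted p = 0.775). The authors' deposited table gives it a log2 fold change of -1.72 and an FDR of 0.004. In edgeR on recovered reads without a block, the smallest adjusted p of any member was 0.999. With a replicate block in limma, dnajc5gb had an adjusted p of 0.0454, among 39 genes called (0.285%). A limma block on the description code called 0 members.

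Its relatives did not share one direction. dnajc5aa ran from 23.2 over a median of 32.4 to 47.6 in fed and from 16.8 over 21.8 to 33.0 in starved libraries. The groups overlapped, and 5 of 6 starved libraries lay below the fed mean. The limma log2 difference was -0.48 ± 0.21 (SE; unadjusted p = 0.0356, adjusted p = 0.885), and the authors' deposited table gives it an FDR of 0.472. dnajc5ab had means of 28.1 ± 4.47 and 28.4 ± 8.31, and dnajc5ga of 17 ± 2.68 and 21.2 ± 4.88 (SD, n = 6 each).

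Among the other DNAJC genes, dnajc8, known from mammals as a splicing-associated protein, was at 61.0 ± 9.90 and 73.4 ± 13.6 (SD, n = 6 each), with all 6 starved libraries above the fed mean. dnajc7, which binds both HSP70 and HSP90, was at 96.2 ± 12.5 and 108 ± 10.4 (SD, n = 6 each). Their limma log2 differences were 0.26 ± 0.17 and 0.17 ± 0.14 (SE). hspbp1, an exchange factor of HSP70, was at 4.54 ± 2.45 and 2.68 ± 2.22 (SD, n = 6 each; limma unadjusted p = 0.0959, adjusted p = 0.893), with 9.34 in fed 4.

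The regulators and co-chaperones around the set gave no call either. Of 6 heat shock factor and regulator genes found, 5 were higher and 1, chordc1a, was lower, with 0 at an unadjusted limma p below 0.05. Of 30 HSP70 and HSP90 co-chaperone genes 20 were higher and 10 lower, with a median log2 difference of 0.10 and again 0 at an unadjusted limma p below 0.05. The smallest p in that list belonged to a pair of genes that act in muscle. unc45b, the myosin co-chaperone of HSP90, was at 111 ± 27.4 and 136 ± 15.2 (SD, n = 6 each; limma unadjusted p = 0.0636, adjusted p = 0.885). smyd1b, a muscle methyltransferase that also binds myosin, was at 21.3 ± 4.50 and 28.8 ± 8.54 (SD, n = 6 each; limma unadjusted p = 0.0804, adjusted p = 0.885). The muscle marker sums given above lay the same way, and their part was not tested. Of 13 lens markers, included for another tissue of the embryo, 7 were higher and 6 lower, with sums of 32.8 to 388 in fed and 45.9 to 317 in starved libraries.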

How the data were processed

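Libraries were made with a 3' tag kit from polyadenylated RNA, per the labels' protocols. The submitters' processing notes name STAR, edgeR and the build GRCz11 (danRer11); versions and the use of strand in counting were not given in the sources. For 13680 genes the authors deposited a signal per library, which the values themselves show to be read counts divided by a size factor. The log2 column is the authors' fold change and the FDR column the authors' adjusted p-value, per the file headers. Within a library 100% of values lay within 0.03 of a whole read (largest deviation 0.0216), so whole reads were recovered, and edgeR on them called 0 genes.

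Libraries were grouped by their titles, and columns matched by their description codes. Over 30 pairs within groups the chi-square per degree of freedom was 6.33 to 40.6, so no pair of a group was a duplicate; pairs across groups were not checked. limma 3.58.1 in R 4.3.3 was fitted to log2(value + 1) over all genes, with a variance trend, no block and Benjamini-Hochberg adjustment (threshold 0.05); this scale understates the change of low genes. Alternatives were edgeR 4.0.16 and DESeq2 1.42.0 on recovered reads, pseudocounts of 0.5 and 5, a minimum mean of 5, a rescaling, blocks and left-out libraries. The fits were tested on simulated data.

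The members and gene lists were chosen with earlier results of these data known, and starved 2 was singled out in that choice. Named genes are, per class, the 2 most abundant and the 2 with the smallest limma p. Members the authors called (FDR under 0.1) and the 10 that most exceeded all other libraries in starved 2 were added. So were members with groups that do not overlap. The heat shock factor, co-chaperone and prefoldin lists each gave the 2 genes with the smallest limma p, and the marker lists were not part of this rule. Further genes (hspa12a, dnajc2, dnajb1a, hsp90aa1.1, hsf2, bag3, fosab and the remaining TRiC and DNAJC5 genes) were named after their values were seen. The ranking in starved 2 needed a value of at least 5 there or a mean of at least 5 in the other 11 libraries. All 68 identifiers were found in the reference list of names. Counting errors cover sampling only.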

Additional observations from a re-analysis of the deposited data

Results flagged for a closer look

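In 10 named chaperone genes 1 library stood far from the other 5 of its group, by the gap between it and its nearest neighbour relative to the group's range. Chance alone flags about 1 in 20 groups of normally distributed values, which low counts need not be. Over all members 13 of 136 groups (9.56%) met this rule, beside 6.97% of the groups over all genes.

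Starved 2 was high for 4 of them: hsp70.3 at 26.74 (next 5.49), hspb9 at 25.42 (next 11.81), dnajb6a at 14.52 (next 7.71) and hspb11 at 8.91 (next 2.74). Such a high value in starved 2 was met by 5.88% of the members and by 1.13% of all genes. Because that library was singled out when the genes were chosen, these shares test nothing. Fed 4 stood apart for 3 genes, with hspb1 at 211.15 (next 113.05) and hspbp1 at 9.34 (next 4.15) high and dnajb11 at 18.98 (next 40.58) low. In fed 5, hsp90ab1 was low at 2683.53, with 4002.04 next. In starved 3, hspa4l was high at 17.60 (next 7.48), and in starved 1, dnaja1 was high at 21.02 (next 15.44).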

How the results depend on the processing

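The labels do not say whether same-numbered libraries are pairs, so the main test had no block. Over all genes the deviations of same-numbered libraries correlated by 0.071, 0.081, 0.263, 0.317, 0.179 and 0.131. Fed 6 correlated best with starved 3 and the other fed libraries with their own number. With a replicate block in limma 1 member was called (dnajc5gb, adjusted p = 0.0454), among 39 genes (0.285%). At an unadjusted limma p below 0.05 with that block there were 4 members (5.88%), beside 9.21% of all genes. A block on the description code called 0 members. In alternatives chosen after seeing the data, dnajc5gb had an adjusted p of 0.118 in edgeR with a replicate block and of 0.238 in limma with the block but without both libraries of code 1203.

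At an unadjusted limma p below 0.05 there was 1 member without both libraries of code 1203, beside 606 of 13680 genes. With 1 library left out there were 1 to 5 members, beside 579 to 963 of 13680 genes. The count was 1 without fed 6, starved 2 or starved 6. After adjustment 0 members were called in any of these, beside 0 of all genes. Starved 2 was highest for 7 members at a minimum mean of 5, where fewer members are tested and hsp70.3 passes the minimum only through starved 2. The median difference of the members lay between 0.035 and 0.095 with 1 library left out.

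The 35 named members gave 834 values under 24 alternatives. Of these, 795 kept direction and call and 38 reversed. Of the reversals, 14 arose outside the 12 alternatives that left out 1 library. Those 14 include fits without both libraries of code 1203 or without fed 4 and fed 5. hsp70.3 was at 0.492 in edgeR, 0.510 in DESeq2 and 0.046 at a pseudocount of 5. hspb1 was at -0.036 in edgeR, -0.033 in DESeq2 and -0.112 without both libraries of code 1203, with or without the block. Without fed 4 and fed 5, hspa4a was at -0.080, hspe1 at 0.429, cct8 at -0.023, dnaja2a at -0.044, dnaja2b at -0.170, dnajb11 at -0.063 and dnajc28 at 0.035. With 1 library left out the log2 difference ranged from -0.585 to 0.243 for hsp70.3, -0.501 to 0.033 for hspa12b, -0.004 to 0.133 for hspa9, -0.006 to 0.336 for hspa4l and -0.104 to 0.202 for hspb1. It ranged from -0.007 to 0.398 for hspb9, -0.292 to 0.235 for hspe1, -0.031 to 0.156 for cct8, -0.096 to 0.159 for dnaja2b, -0.083 to 0.165 for dnajb11 and -0.388 to 0.029 for dnajc28. The causes of these reversals were not tested. Genes with values of a few reads, such as hspb11, are limited by depth.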
